A study of Mus musculus with 8 samples.

Results

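The collagen genes were followed in epididymal white fat, a large visceral pad of male mice, taken from 8 obese animals. All protein-coding genes whose symbol is Col, a number, a and a number were taken, which gave 44 of 55487 gene identifiers. They were divided by structure into 11 fibrillar, 6 basement membrane (collagen IV), 6 collagen VI and 21 other collagens. The 4 AKO mice carry homozygous floxed Slc16a1 with the AP2-Cre transgene, and their labels give the genotype Slc16a1 -/-. The 4 WT mice carry the same floxed alleles without Cre. All 8 are C57BL/6 males made obese by a high fat diet (HFD), and the labels used here give no age. The AP2 promoter belongs to the fatty acid binding protein gene Fabp4, which is best known from fat cells and is also active in macrophages. No mice with Cre and unfloxed alleles are among the samples, so Cre and the intended deletion cannot be told apart. Slc16a1 encodes MCT1, a carrier of lactate and pyruvate, and the comparison asks what its intended loss does to the transcripts of the pad.

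Collagens are the main proteins of the extracellular matrix. Each chain carries a long stretch with glycine at every turn of its helix, and chains wind together into trimers before they are secreted. Fibrillar collagens form the cables between cells, collagen IV forms the sheet that surrounds every fat cell and vessel, and collagen VI forms beaded filaments that link the sheet to the cables. In obese fat these matrices surround enlarged fat cells, and fibroblast-like progenitors are the best known source of the fibril chains. Levels below are TPM (a length-scaled share of each library's transcripts, the authors' unit). A log2 change is AKO minus WT of log2(TPM + 1), and it understates the change of low genes.

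The tables analysed here hold TPM, so the read depth behind a value is unknown. Slc16a1 itself had 22.4, 21.5, 27.1 and 25.03 TPM in AKO mice 3, 8, 9 and 11, against 23.4, 28.5, 15.7 and 17.7 TPM in WT mice 2, 3, 4 and 5 (limma FDR = 0.850). The AKO values lie inside the WT range, so the gene's total does not check the genotype, and AKO and WT stand for the labels throughout. The gene has 2 deposited rows, and the higher of them holds 53.2% of its TPM. With that row in place of the sum, the log2 change was 2.24 instead of 0.19 (unadjusted limma p of 0.0442, FDR = 0.835). The 2 rows thus did not change alike between AKO and WT. Which transcript each row holds is not known, and whether the rows reflect the deletion was not tested. The fat cell markers were all detected, with summed levels of 30340 to 42580 TPM in AKO mice and 28840 to 44800 TPM in WT mice.

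Upstream sequences are shown for 4 collagens because their genes follow different patterns over the mice. Col3a1, Col1a2 and Col8a1 share their 3 highest mice and their lowest mouse, and Col18a1 differs in both. Between these ends Col8a1 orders the mice otherwise than Col3a1 and Col1a2. Each line holds the 250 bases before the RefSeq start in GRCm38.p6, another build than the authors' mm9, with the CCAAT box, the TATAAA element and the GGGCGG box in capitals on either strand. RefSeq windows were at hand for 35 of the 44 collagens. Col3a1 is chr1:45311288-45311537 (+ strand), Col1a2 is chr6:4505368-4505617 (+ strand), Col8a1 is chr16:57754738-57754987 (- strand) and Col18a1 is chr10:77166531-77166780 (- strand), the outer of the 2 windows of that gene.
Col3a1: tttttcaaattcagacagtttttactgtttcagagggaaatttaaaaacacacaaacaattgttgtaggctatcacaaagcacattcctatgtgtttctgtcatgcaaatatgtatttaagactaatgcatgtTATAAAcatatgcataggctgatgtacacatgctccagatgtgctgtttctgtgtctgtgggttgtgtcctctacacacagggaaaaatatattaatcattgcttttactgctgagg
Col1a2: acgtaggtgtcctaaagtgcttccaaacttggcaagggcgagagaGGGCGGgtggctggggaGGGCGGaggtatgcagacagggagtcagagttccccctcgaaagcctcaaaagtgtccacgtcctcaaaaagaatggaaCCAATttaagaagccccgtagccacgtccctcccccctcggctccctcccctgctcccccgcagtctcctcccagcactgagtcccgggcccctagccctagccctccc
Col8a1: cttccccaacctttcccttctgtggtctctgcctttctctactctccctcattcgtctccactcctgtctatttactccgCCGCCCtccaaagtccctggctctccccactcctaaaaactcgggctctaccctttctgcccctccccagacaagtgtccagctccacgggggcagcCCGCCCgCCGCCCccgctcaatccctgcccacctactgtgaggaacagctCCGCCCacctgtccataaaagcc
Col18a1: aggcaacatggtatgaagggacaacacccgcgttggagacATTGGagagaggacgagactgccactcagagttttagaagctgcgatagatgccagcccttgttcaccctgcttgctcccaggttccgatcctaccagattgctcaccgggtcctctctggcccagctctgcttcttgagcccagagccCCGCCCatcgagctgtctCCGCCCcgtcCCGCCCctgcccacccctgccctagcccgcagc
The Col3a1 stretch holds 1 TATAAA and neither of the other motifs. The Col1a2 stretch holds 1 CCAAT and 2 GGGCGG, Col8a1 holds 4 GGGCGG, and the outer Col18a1 window holds 1 CCAAT and 3 GGGCGG. The inner Col18a1 window, which is not printed, holds none of these motifs, and which start the deposited rows use is not known. Over all 32851 RefSeq stretches of this length, 33.8% hold CCAAT, 12.4% hold TATAAA and 32.7% hold GGGCGG. Thus Col3a1, Col1a2 and Col8a1 share none of these motifs in all 3 windows. They are 3 of the 8 tested collagens with the same 3 highest mice, and the rest are not printed here. Shared control by these stretches was not tested. A match describes letters only.

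Collagens made up between 0.298% and 0.498% of all TPM per library. Of the 44 genes, 24 had at least 1 TPM in at least 4 libraries and were tested. Another 17 stayed below 1 TPM in every library, with a highest value of 0.960 TPM: Col4a3, Col4a4, Col6a4, Col11a1, Col11a2, Col24a1, Col2a1, Col26a1, Col7a1, Col9a1, Col9a2, Col9a3, Col17a1, Col13a1, Col10a1, Col25a1 and Col19a1. These include the main cartilage chains, Col2a1, Col9a1 and Col11a1, and Col17a1 of skin attachment. The remaining 3, Col20a1, Col8a2 and Col22a1, reached 1 TPM in some mice but fewer than 4. Col3a1, Col4a1, Col6a2, Col4a2 and Col6a1 had the highest means over the 8 mice.

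**Figure D1:**
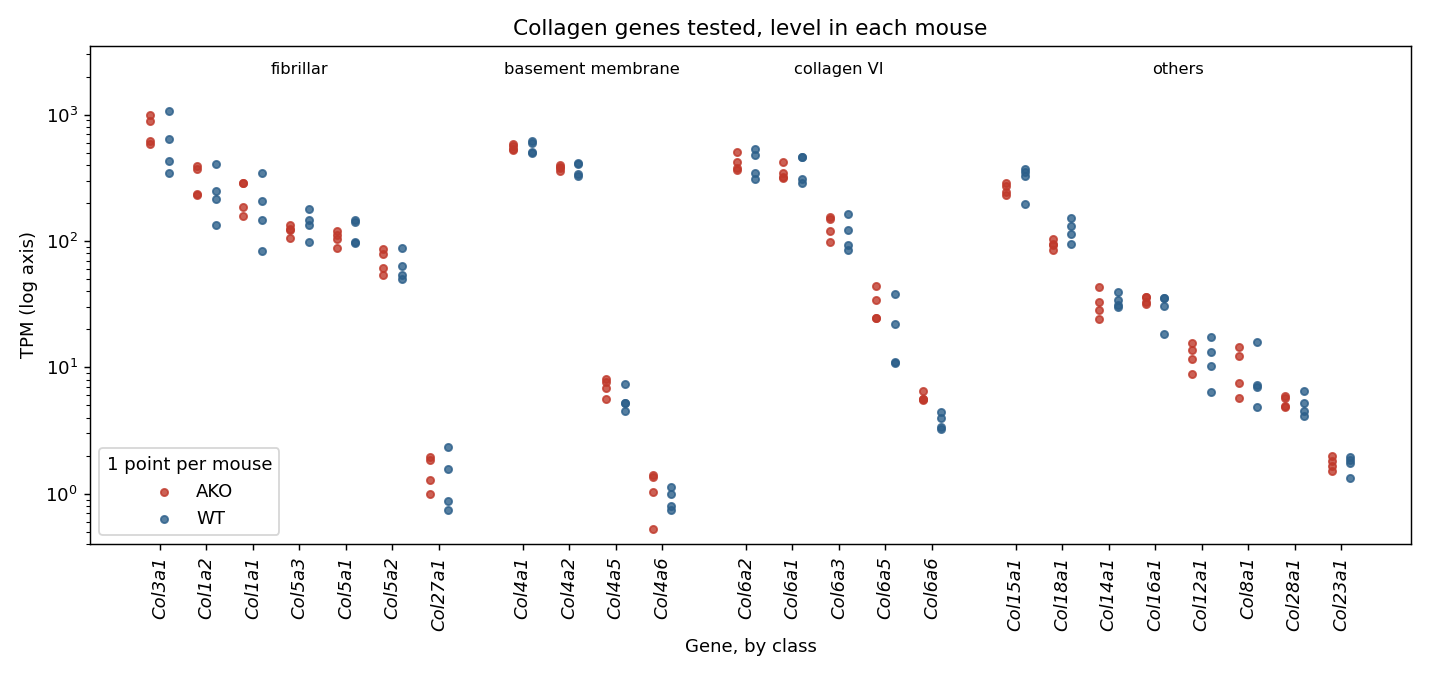
Level (TPM, log axis) of the 24 tested collagen genes in each mouse, grouped by class, with AKO mice in red on the left and WT mice in blue on the right of each gene. Col3a1 was the most abundant, with 1072 TPM in WT mouse 3, and Col6a6 is the gene whose AKO and WT points do not overlap.

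No collagen gene passed the threshold in AKO against WT. Limma called 0 of the 24 tested collagens at an FDR below 0.05, where 0.0282% of all 14172 tested genes were called. At an unadjusted p below 0.05 there were 2 collagens, Col6a6 with the higher level in AKO and Col18a1 with the lower. That rule takes 2.58% of all tested genes upwards and 2.17% downwards, so 1 of 24 in each direction is close to the background. AKO and WT did not overlap for Col6a6 alone, with AKO above, a pattern that 1.11% of all tested genes share, and 2.44% of them did not overlap in either direction. No collagen lay below WT in each AKO mouse, against 1.33% of all tested genes. Positive log2 changes were found for 17 of the 24 and negative ones for 7, with a median of 0.10. Over all tested genes 53.8% were positive, with a median of 0.015. In bulk tissue, fewer cells of a type and less RNA per cell cannot be told apart.

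**Figure D2:**
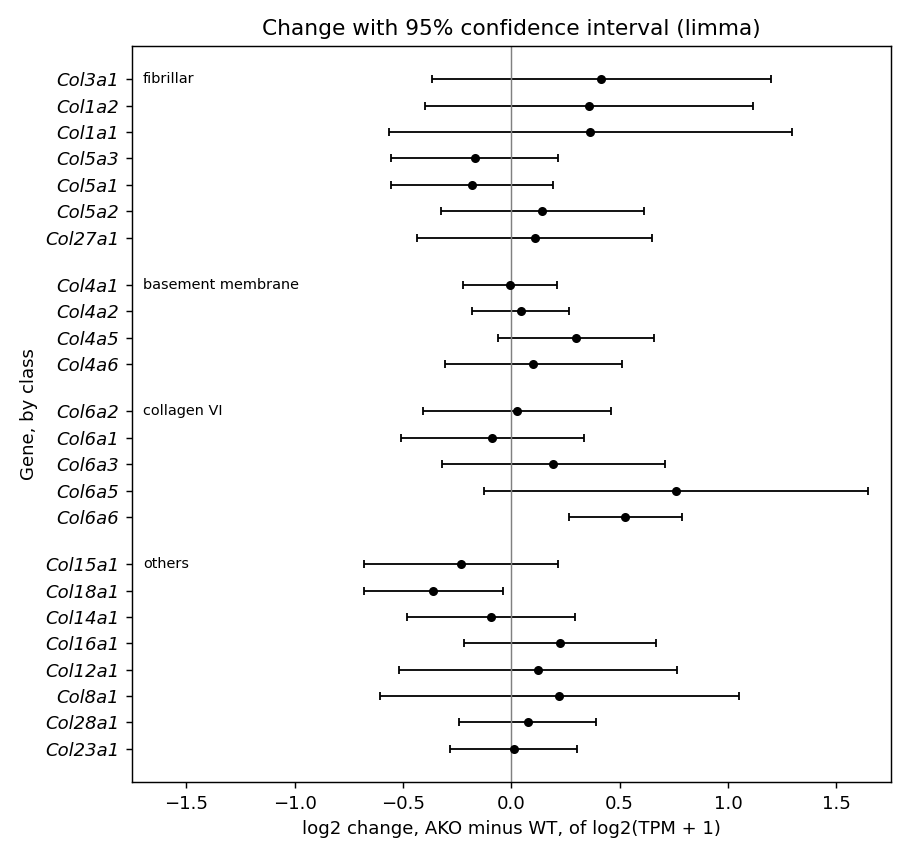
Log2 change (AKO minus WT, of log2(TPM + 1)) of the 24 tested collagens, grouped by class, with 95% confidence intervals from limma. The intervals of Col6a6, from 0.27 to 0.79, and Col18a1, from -0.68 to -0.04, leave out 0 before adjustment for the number of genes, and those of the fibril chains Col1a1, Col1a2 and Col3a1 are wide.

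The fibril chains were the most abundant class, and they varied more between mice of the same genotype than between genotypes. Col3a1 (ENSMUSG00000026043), the chain of type III collagen in distensible tissue, had 985, 587, 891 and 623 TPM in AKO mice 3, 8, 9 and 11, against 432, 1072, 344 and 636 TPM in WT mice 2, 3, 4 and 5. The highest and the lowest value both belong to WT mice, and the AKO values lie between them. The mean was 772 ± 197 TPM in AKO and 621 ± 325 TPM in WT (SD, n = 4 each), a log2 change of 0.42 (SE 0.34, limma FDR = 0.843). Its interval reaches from -0.37 to 1.20, so a rise above 2-fold and a moderate fall are both inside it.

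Type I collagen, the main cable of tendon, bone and scar, is built from the chains of Col1a1 and Col1a2. Col1a1 had 288, 157, 289.8 and 185 TPM in AKO mice, against 147, 343, 83.0 and 209 TPM in WT mice, in the same order of mice. Col1a2 had 391, 229.6, 373 and 236 TPM in AKO mice, against 213, 410.3, 133 and 249 TPM in WT mice. Both were highest in WT mouse 3 and lowest in WT mouse 4. Their log2 changes were 0.37 (SE 0.41, limma FDR = 0.880) for Col1a1 and 0.36 (SE 0.33, FDR = 0.853) for Col1a2. WT mouse 4 weighs on these values: without it the change was 0.018 for Col1a1, 0.094 for Col1a2 and 0.18 for Col3a1, and without WT mouse 3 it was 0.70, 0.63 and 0.72.

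The trimer of type I collagen takes more Col1a1 chains than Col1a2 chains, while the transcripts stood the other way. The TPM ratio of Col1a1 to Col1a2 was 0.737, 0.684, 0.777 and 0.781 in AKO mice and 0.689, 0.836, 0.622 and 0.837 in WT mice. It was below 1 in 8 of 8 mice. The mean was 0.745 ± 0.0451 in AKO and 0.746 ± 0.108 in WT, and the groups overlap.

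Type V collagen sits at the core of fibrils and sets their diameter. Of its 3 chains, Col5a1 and Col5a3 had like negative changes and Col5a2 had a positive one. Col5a2 had 86.5, 54.05, 78.8 and 61.0 TPM in AKO mice and 53.8, 88.0, 50.02 and 63.3 TPM in WT mice, a log2 change of 0.14 (limma FDR = 0.907), and is described here to complete the trimer. Col5a1 had 119, 88.5, 103 and 111 TPM in AKO mice and 96.8, 141, 99.0 and 148 TPM in WT mice, a change of -0.18 (FDR = 0.850). Col5a3 had 124, 123, 106 and 134 TPM in AKO mice and 98.2, 134, 148 and 179 TPM in WT mice, a change of -0.17 (FDR = 0.863). The groups overlap for each of the 3. Without WT mouse 5 the change was -0.041 for Col5a3 and -0.075 for Col5a1, and without WT mouse 2 it was -0.33 for Col5a3 and -0.28 for Col5a1. Col27a1, a fibrillar chain best known from cartilage, was low, at 1.0 to 1.94 TPM in AKO mice and 0.750 to 2.36 TPM in WT mice. Of the 7 tested fibrillar genes 5 had positive and 2 negative changes, with a median of 0.14, and 0 passed.

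Basement membrane collagen was the steadiest class by its sum, which is nearly all Col4a1 and Col4a2. Col4a1 had 533, 528, 588 and 563 TPM in AKO mice, against 502, 616, 506 and 602 TPM in WT mice. Col4a2 had 387, 361, 397 and 379 TPM in AKO mice, against 336, 406, 328 and 418 TPM in WT mice. These are the chains of the common collagen IV network, and the AKO values of each lie inside the range of the WT values. The log2 change was -0.0039 for Col4a1, with an interval from -0.22 to 0.21 (limma FDR = 0.995), and 0.043 for Col4a2, with an interval from -0.18 to 0.27 (FDR = 0.935). For Col4a1 the highest mouse was 1.23 times the lowest, while Col3a1 reached 3.12 and Col1a1 4.13. In the same class the rarer Col4a5 reached 1.80 and Col4a6, with a mean of 1.0 TPM, reached 2.66. Over the 12767 genes with at least 1 TPM in every library the median of this quotient was 1.5. A smaller quotient than that of Col4a1 was found in 12.2% of them, and a larger one than that of Col3a1 in 7.15%.

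Col4a1 and Col4a2 lie head to head on chromosome 8, and their RefSeq promoter windows overlap by 78 bases in GRCm38.p6. Their TPM ratio was 1.38, 1.46, 1.48 and 1.49 in AKO mice and 1.49, 1.52, 1.55 and 1.44 in WT mice. The ratio thus stayed within a narrow band over the 8 mice, and the groups overlap. The rarer chains Col4a5 and Col4a6, known from kidney and smooth muscle membranes, are neighbours on chromosome X. Col4a5 had 8.16, 6.85, 5.65 and 7.63 TPM in AKO mice, against 4.54, 7.45, 5.23 and 5.18 TPM in WT mice. The 4 AKO values lie above 3 of the 4 WT values, and WT mouse 3 overlaps them, with a log2 change of 0.30 (SE 0.16, limma FDR = 0.831). Col4a6 had 0.530 to 1.41 TPM in AKO mice and 0.740 to 1.14 TPM in WT mice, with a change of 0.10 (FDR = 0.918).

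Collagen VI held the gene whose groups separated. Col6a6 (ENSMUSG00000043719), an alternative to the Col6a3 chain, had 5.62, 6.56, 5.48 and 5.62 TPM in AKO mice 3, 8, 9 and 11, against 3.24, 4.42, 3.38 and 3.95 TPM in WT mice 2, 3, 4 and 5. Every AKO mouse lay above every WT mouse. The mean was 5.82 ± 0.498 TPM in AKO and 3.75 ± 0.543 TPM in WT (SD, n = 4 each), 1.55-fold higher in AKO on the TPM scale. The log2 change of 0.53 (SE 0.11) had an unadjusted limma p of 0.00143 and an FDR of 0.656, so it did not pass over all genes. Leaving out any 1 mouse gave changes between 0.47 and 0.59. A single deposited row carries 100% of this gene's TPM.

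Col6a5, the neighbour of Col6a6 on chromosome 9, had a like ratio of the means on the TPM scale, 1.56, but its groups overlapped. It had 43.9, 34.3, 24.8 and 24.4 TPM in AKO mice, against 11.04, 38.0, 10.8 and 21.9 TPM in WT mice. WT mouse 3 lay among the AKO mice and the other WT mice below them. The log2 change was 0.76 (SE 0.39, limma FDR = 0.831), and it was 1.11 without WT mouse 3 and 0.53 without WT mouse 4.

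The chains of the common collagen VI filament differed less between the groups. Col6a1 had 424, 321, 348 and 317 TPM in AKO mice and 287, 463, 308 and 466 TPM in WT mice, with a change of -0.087 (limma FDR = 0.931). Col6a2 had 504, 367, 418 and 382 TPM in AKO mice and 307, 534, 345 and 483 TPM in WT mice, with a change of 0.027 (FDR = 0.979). Col6a3, from whose end endotrophin is cut in obese fat, had 156, 98.5, 149 and 119 TPM in AKO mice and 93.2, 164, 85.2 and 122 TPM in WT mice, with a change of 0.19 (FDR = 0.881). The groups overlap for all 3, with WT mice at both ends of each. The change of Col6a3 was 0.062 without WT mouse 4 and 0.38 without WT mouse 3. The TPM ratio of Col6a5 to Col6a1 was 0.104, 0.107, 0.0713 and 0.0771 in AKO mice and 0.0384, 0.0820, 0.0350 and 0.0470 in WT mice. In this ratio too, WT mouse 3 is the WT mouse that overlaps AKO. Of the 5 tested collagen VI genes 4 had positive changes, with a median of 0.19, and 0 passed.

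**Figure D3:**
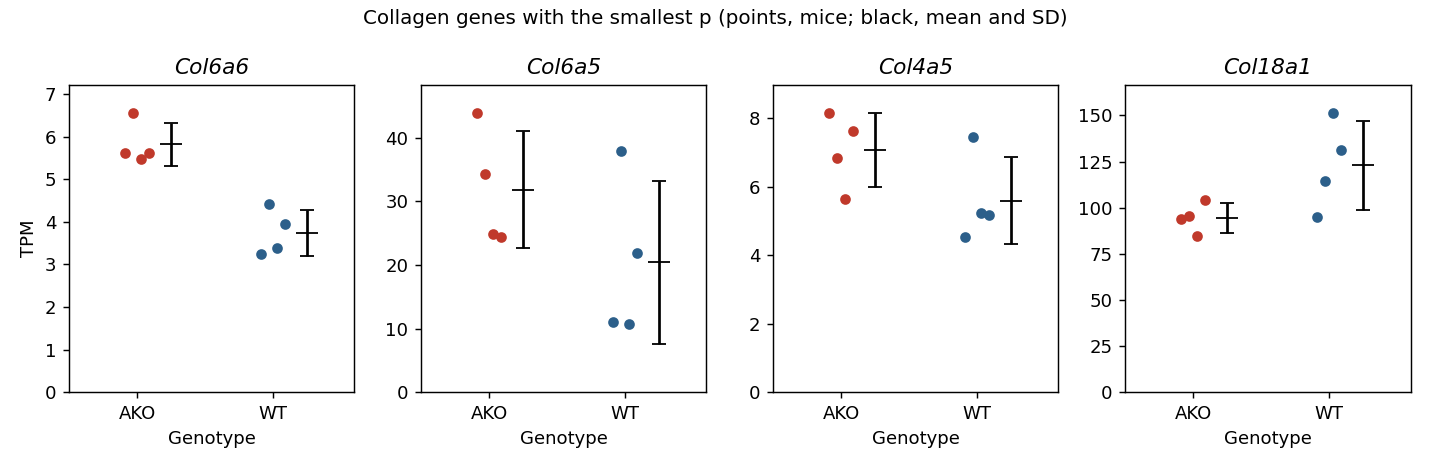
Level (TPM) of the 4 collagen genes with the smallest p in each mouse, AKO on the left and WT on the right of each panel, with the mean and SD in black (n = 4 each). Col6a6 separates the groups, at 5.48 to 6.56 TPM in AKO and 3.24 to 4.42 TPM in WT, and the other panels overlap.

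Among the other collagens the basement-membrane-linked multiplexins Col15a1 and Col18a1 were the most abundant, and both had lower means in AKO. Col18a1 (ENSMUSG00000001435), whose end is cut to give the vessel inhibitor endostatin, had 93.7, 95.5, 84.6 and 104 TPM in AKO mice, against 94.9, 114, 151 and 131 TPM in WT mice. WT mouse 2 lies within the AKO values and the other WT mice above them. The mean was 94.5 ± 8.02 TPM in AKO and 123 ± 24.1 TPM in WT, with a log2 change of -0.36 (SE 0.14, an unadjusted limma p of 0.0319, FDR = 0.831). Col15a1, of muscle and vessel membranes, had 272, 231, 244 and 286 TPM in AKO mice, against 195, 328, 353 and 371 TPM in WT mice. WT mouse 2 had the lowest value of all and the other WT mice the 3 highest. The log2 change was -0.23 (SE 0.20, limma FDR = 0.845), and it was -0.44 without WT mouse 2 and -0.14 without WT mouse 5.

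The lower Col18a1 total was not shared by all its deposited rows, a point looked at after the values were seen. The rows do not name their transcripts and are numbered in file order. Row 5 averaged 10.5 ± 4.81 TPM in AKO and 24.7 ± 10.5 TPM in WT, and row 6 averaged 32.2 ± 5.97 TPM in AKO and 44.7 ± 10.4 TPM in WT. Row 2 was alike, at 44.3 ± 3.58 TPM in AKO and 45.1 ± 3.5 TPM in WT. With the highest row alone the log2 change of Col18a1 was -0.026. For rows 5 and 6 the groups overlap, and row values depend on how the quantifier divided the reads.

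Collagens that bind to the surface of fibrils were detected at a lower level. Col14a1 had 43.1, 33.0, 28.3 and 24.1 TPM in AKO mice and 34.3, 39.2, 31.3 and 30.1 TPM in WT mice, a log2 change of -0.092 (limma FDR = 0.922). Col16a1 had 36.2, 31.6, 35.9 and 32.8 TPM in AKO mice and 35.3, 30.4, 18.4 and 35.6 TPM in WT mice, a change of 0.22 (FDR = 0.848). WT mouse 4 is the low value for Col16a1, and without it the change was 0.014, while the highest row of the gene alone gave -0.13. Col12a1 had 8.79 to 15.6 TPM in AKO mice and 6.33 to 17.5 TPM in WT mice. Col8a1, a short chain of vessel walls, had 5.76 to 14.4 TPM in AKO mice and 4.82 to 15.8 TPM in WT mice. Col28a1, known from peripheral nerve, had 4.83 to 5.99 TPM in AKO mice and 4.10 to 6.48 TPM in WT mice. Col23a1, a membrane-bound collagen, had 1.51 to 1.98 TPM in AKO mice and 1.34 to 1.97 TPM in WT mice. AKO and WT overlap for each of these. Of the 8 tested others 5 had positive and 3 negative changes, with a median of 0.043.

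Summed by class, no class separated AKO from WT, and no p is given for these sums. Fibrillar collagens held 1997, 1241, 1845 and 1352 TPM in AKO mice, against 1042, 2192, 858 and 1486 TPM in WT mice. Collagen IV held 931, 898, 992 and 953 TPM in AKO mice, against 844, 1031, 842 and 1027 TPM in WT mice. In both classes WT mouse 3 was highest and WT mouse 4 lowest, and every AKO mouse lay between these. Collagen VI held 1135, 827, 946 and 848 TPM in AKO mice, against 703, 1204, 752 and 1097 TPM in WT mice. The others held 487, 415, 429.6 and 479.7 TPM in AKO mice, against 388, 556, 575 and 598 TPM in WT mice. In that class 3 WT mice lay above all AKO mice and WT mouse 2 below them. The fibrillar share of all collagen TPM was 43.9%, 36.7%, 43.8% and 37.2% in AKO mice, against 35.01%, 44.0%, 28.4% and 35.3% in WT mice. Only WT mouse 3 reached the AKO values of this share.

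The mean log2 difference of the sums, AKO minus WT, was 0.27 for fibrillar collagens, 0.018 for collagen IV, 0.027 for collagen VI, -0.21 for the others and 0.079 for all collagens. The fibrillar difference was 0.070 without WT mouse 4 and 0.52 without WT mouse 3. In each class the SD of the WT sums exceeded the difference of the means. In the class of others the mean was 453 ± 35.8 TPM in AKO and 529 ± 95.7 TPM in WT.

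**Figure D4:**
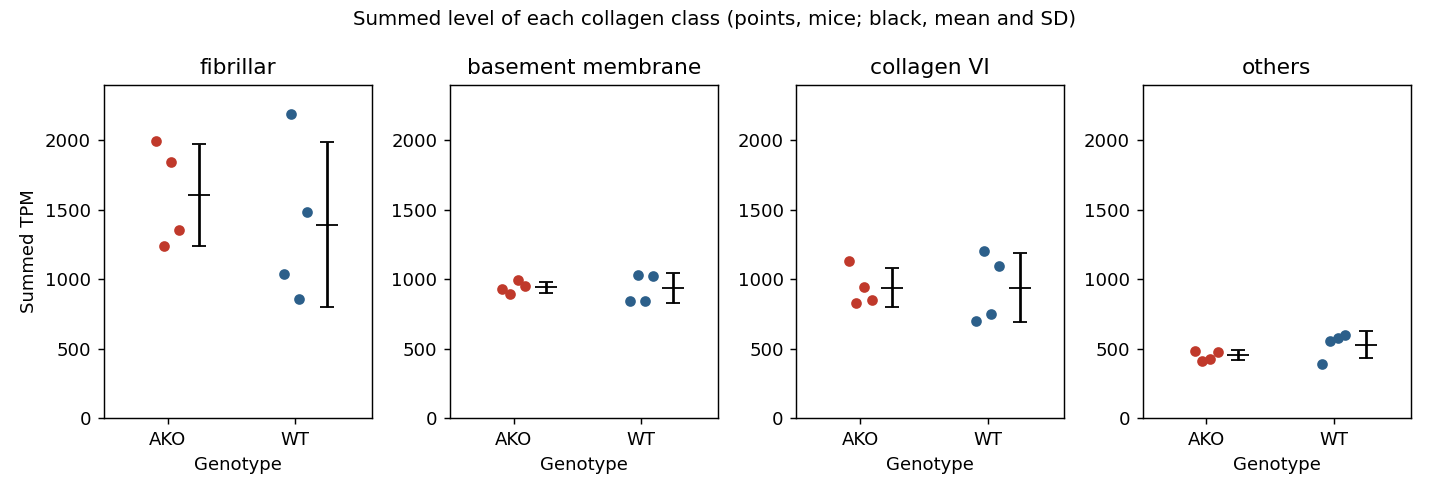
Summed TPM of the fibrillar, basement membrane (collagen IV), collagen VI and other collagens in each mouse, AKO left and WT right, with the mean and SD in black (n = 4 each). Points overlap in every class, and the spread of the fibrillar sums in WT, from 858 to 2192 TPM, is wider than that in AKO, from 1241 to 1997 TPM.

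A minority of the collagens, the main fibril chains among them, shared an order of the mice that cuts across genotype. Col3a1, Col1a2, Col5a2, Col27a1 and Col6a3 ranked the 8 mice alike, from WT mouse 3 through AKO mice 3 and 9, WT mouse 5, AKO mice 11 and 8 and WT mouse 2 down to WT mouse 4. AKO mouse 3, AKO mouse 9 and WT mouse 3 were the highest 3 for 8 of the 24 tested genes, namely these and Col1a1, Col12a1 and Col8a1. WT mouse 4 was lowest for 11 of the 24 and WT mouse 2 for 8, while WT mouse 3 was highest for 10. Col5a3, Col15a1 and Col18a1 were among those that did not follow this order: WT mouse 4 was the highest of all mice for Col18a1 and WT mouse 5 for Col15a1 and Col5a3. These counts describe the mice and were chosen after the values were seen. They were not made over all tested genes, so whether the order is particular to collagens was not tested.

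**Figure D5:**
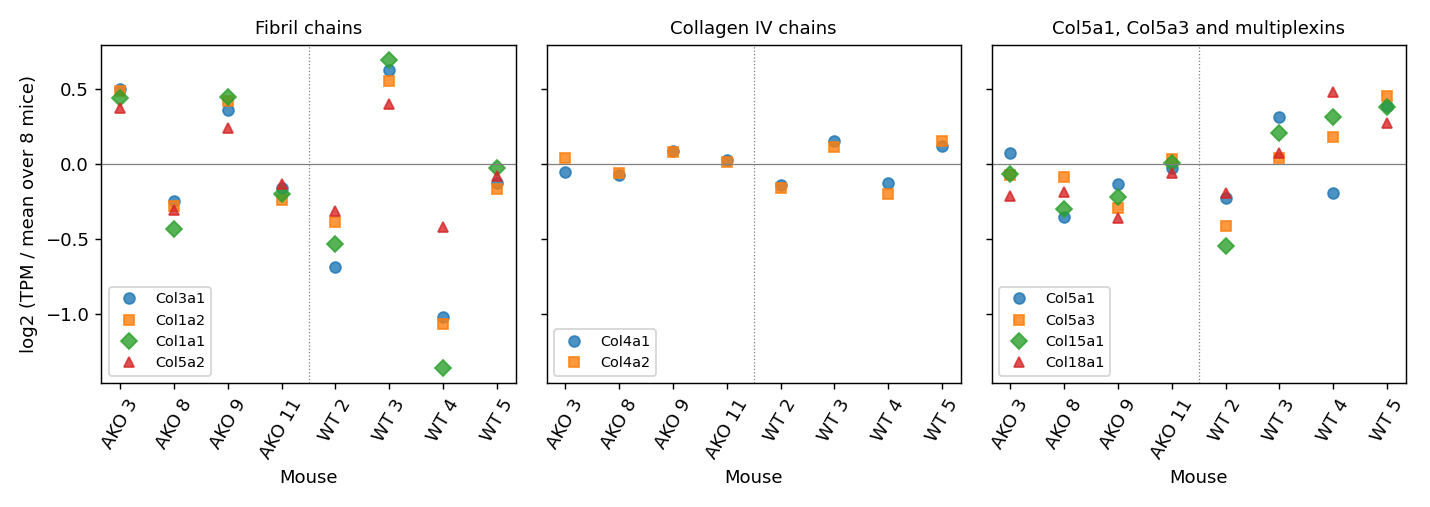
Level of 10 collagen genes in each mouse as log2 of TPM over the gene's mean of the 8 mice, AKO left and WT right of the dotted line. Col3a1, Col1a2, Col1a1 and Col5a2 share high points in AKO mice 3 and 9 and WT mouse 3. They also share a low point in WT mouse 4. The collagen IV chains stay near 0, and Col15a1 and Col18a1 are high in WT mouse 4.

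Both macrophage marker lists had the same 3 mice on top and the same mouse lowest as the main fibril chains, and the fat cell markers ran the opposite way. The 9 macrophage markers summed to 4397, 3450, 4864 and 2781 TPM in AKO mice, against 2794, 4110, 1826 and 2761 TPM in WT mice. The 9 markers of lipid-associated macrophages, which gather at dying fat cells, summed to 8848, 7322, 10540 and 7069 TPM in AKO mice, against 6253, 8929, 5128 and 6955 TPM in WT mice. In both lists the 3 mice highest for the main fibril chains were the 3 highest, and WT mouse 4 was the lowest. The 10 fat cell markers had 30340 and 30750 TPM in AKO mice 3 and 9 and 28840 TPM in WT mouse 3 as their lowest sums, and 44800 TPM in WT mouse 4 as their highest. In AKO against WT, 8 of 9 members of each macrophage list had positive log2 changes and 9 of 10 fat cell markers negative ones, where 53.8% of all tested genes were positive. The median log2 change was 0.39 for the macrophage list, 1.20 for the lipid-associated list and -0.17 for the fat cell list, with 0 members past the FDR threshold. The mean log2 difference of the sums was 0.46, 0.32 and -0.085 for these lists. A sum weighs its most abundant members most, so the lipid-associated sum need not stand for most of its members. The share of single members in it, Lpl among them, is not given here. At an unadjusted p below 0.05 there were 3 of 9 lipid-associated macrophage genes and 1 of 10 progenitor and fibroblast genes, higher in AKO, where 2.58% of all tested genes were. Lower in AKO at that p was 1 of 10 fat cell genes, where 2.17% of all tested genes were. The part of these cell types in the collagen values was not tested.

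The sum of the list meant for the best known source of fibril collagen did not rank the mice as the main fibril chains did. The 10 markers of progenitors and fibroblasts summed to 989, 921, 854 and 780.0 TPM in AKO mice, against 870.3, 792, 769 and 723 TPM in WT mice, and 9 of the 10 had positive changes with a median of 0.098. WT mouse 3, the highest for the main fibril chains, ranked in the middle here. The share of single members in this sum is not given, and the cell source of the collagen transcripts was not tested. The 8 endothelial markers summed to 572 to 799 TPM in AKO mice and 454 to 858 TPM in WT mice, with WT mouse 3 lowest and WT mice 2 and 4 highest. The 8 markers of mural cells, which wrap vessels, summed to 289 to 454 TPM in AKO mice and 348 to 519.5 TPM in WT mice, and the 8 mesothelial markers to 17.4 to 60.1 TPM in AKO mice and 26.6 to 73.4 TPM in WT mice. Schwann cell markers summed to 35.4 to 69.7 TPM in AKO mice and 30.5 to 74.4 TPM in WT mice, with their defining genes Sox10 and Cdh19 below 1 TPM in every library. Skeletal muscle markers summed to 19.7 to 67.9 TPM in AKO mice and 13.2 to 39.9 TPM in WT mice, with Ckm, Myh4, Myh1 and Tnnt3 below 1 TPM in every library. Markers of the epididymal lining summed to 0.550 TPM or less in AKO mice. In WT mice 2, 3, 4 and 5 they summed to 0.05, 4.64, 7.57 and 0.06 TPM, with Lcn8 and Lcn9 listed at 0 throughout. The higher sums thus belong to WT mice 3 and 4, the mice at the 2 ends of the main fibril chains. Whether these pads held epididymal tissue was not tested. For each of these lists the summed levels of AKO and WT overlap.

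Genes that make, trim, bind and sense collagen showed no passing member either. Limma called 0 of 84 tested partner genes at an FDR below 0.05, and 6 at an unadjusted p below 0.05, 5 higher and 1 lower in AKO, where 4.75% of all tested genes had such a p (2.58% upwards and 2.17% downwards). Among 18 tested genes of chain modification and folding, 8 were positive and 10 negative, with a median of -0.038. Plod2, the lysyl hydroxylase of fibrotic crosslinks, had 13.5, 10.9, 13.1 and 10.6 TPM in AKO mice and 9.22, 13.8, 7.55 and 9.06 TPM in WT mice (FDR = 0.831). P4ha2, a prolyl hydroxylase subunit, averaged 19.5 ± 1.78 TPM in AKO and 23.7 ± 3.5 TPM in WT (log2 change -0.26), and Plod3, another lysyl hydroxylase, 93.01 ± 4.96 TPM in AKO and 104 ± 8.28 TPM in WT (-0.16). P4ha1, the main prolyl hydroxylase subunit, averaged 30.1 ± 1.17 TPM in AKO and 27.03 ± 4.41 TPM in WT (0.16). Their groups overlap.

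Propeptide removal and crosslinking had 9 positive and 2 negative changes among 11 tested genes, with a median of 0.14. Pcolce, the enhancer of the enzyme that trims fibril chains, had 112, 77.5, 119.6 and 72.4 TPM in AKO mice, against 58.1, 118, 43.6 and 81.4 TPM in WT mice (log2 change 0.40, limma FDR = 0.831), and the change was 0.18 without WT mouse 4 and 0.65 without WT mouse 3. Like the main fibril chains it was high in AKO mice 3 and 9 and WT mouse 3 and lowest in WT mouse 4. The lysyl oxidase relatives Loxl3 and Loxl4 averaged 7.13 ± 2.08 and 3.20 ± 0.820 TPM in AKO, against 5.59 ± 1.41 and 3.58 ± 0.681 TPM in WT. Tll1, a trimming protease, averaged 1.21 ± 0.138 TPM in AKO and 1.28 ± 0.145 TPM in WT.

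Collagen receptors and uptake genes had 6 positive and 3 negative changes among 9 tested, with a median of 0.10. Lair1, an inhibitory collagen receptor of immune cells, had 24.1, 20.01, 36.8 and 17.3 TPM in AKO mice, against 13.9, 28.3, 7.34 and 10.6 TPM in WT mice (log2 change 0.78, limma FDR = 0.831). Its highest AKO and WT mice are again 9 and 3. Antxr1, a collagen receptor also used by anthrax toxin, averaged 13.9 ± 2.88 TPM in AKO and 11.3 ± 2.64 TPM in WT (0.28), and its change was 0.12 without WT mouse 5 and 0.43 without AKO mouse 11. The discoidin receptors Ddr2 and Ddr1 averaged 33.7 ± 2.06 and 35.4 ± 2.81 TPM in AKO, against 35.8 ± 1.94 and 37.3 ± 3.49 TPM in WT.

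Proteins that coat fibrils had 9 positive and 5 negative changes among 14 tested, with a median of 0.16. Dcn, which encodes decorin, had 1042, 1079, 960.4 and 771 TPM in AKO mice, against 735, 822, 794 and 702 TPM in WT mice (log2 change 0.33, an unadjusted limma p of 0.0247, FDR = 0.831). Here 3 AKO mice lay above all WT mice and AKO mouse 11 among them. Ogn, a related small proteoglycan gene, had 69.6, 69.8, 58.9 and 45.4 TPM in AKO mice, against 44.8, 51.3, 48.5 and 38.7 TPM in WT mice (0.39, FDR = 0.831). Prelp, which links membranes to fibrils, averaged 706 ± 112 TPM in AKO and 822 ± 132 TPM in WT (-0.22), and Thbs1, which encodes thrombospondin 1, 63.7 ± 13.8 TPM in AKO and 87.6 ± 49.7 TPM in WT (-0.32).

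Basement membrane partners of collagen IV had 6 positive and 9 negative changes among 15 tested, with a median of -0.10. Lama2, the laminin chain of muscle-type membranes, had 34.9, 34.0, 37.04 and 29.1 TPM in AKO mice, against 25.8, 31.5, 24.96 and 23.95 TPM in WT mice (log2 change 0.34, an unadjusted limma p of 0.0140, FDR = 0.831). WT mouse 3 is the WT mouse that reaches the AKO values. Lama5, another laminin chain, averaged 16.7 ± 1.97 TPM in AKO and 19.7 ± 1.97 TPM in WT (-0.23). Pxdn, which encodes peroxidasin, the enzyme that crosslinks collagen IV, averaged 111 ± 15.1 TPM in AKO and 134 ± 27.4 TPM in WT (-0.26). Lamc1, the shared laminin gamma chain, averaged 136 ± 5.30 TPM in AKO and 129 ± 7.01 TPM in WT (0.073).

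Genes of TGF-beta input, the best known driver of fibril collagen transcription, had 11 positive and 6 negative changes among 17 tested, with a median of 0.095. Ccn2, a matrix growth factor also called CTGF and a known TGF-beta target, had 40.01, 29.4, 32.8 and 26.7 TPM in AKO mice, against 48.6, 43.6, 38.0 and 48.6 TPM in WT mice. AKO mouse 3 overlaps the lowest WT mouse, and the log2 change was -0.47 (SE 0.14, an unadjusted limma p of 0.00760, FDR = 0.831). Skil and Smad7, feedback inhibitors of the pathway, averaged 9.64 ± 1.47 and 5.95 ± 0.416 TPM in AKO, against 7.05 ± 1.06 and 4.44 ± 1.29 TPM in WT (0.40 and 0.38, FDR = 0.831 for both). Smad2, a signal transducer, averaged 27.3 ± 2.77 TPM in AKO and 29.9 ± 2.29 TPM in WT (-0.13). None of these reached the threshold, and the 2 directions stand side by side within the list.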

How the data were processed

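RNA of epididymal fat from 8 mice was sequenced with TruSeq libraries, per the labels' protocols. The authors deposited TPM values, with 152298 rows per library and several rows per gene, and no read depth is kept. Per the submitters' processing notes, the tools were HISAT2 and DESeq2 and the build mm9, with no version or step stated. What quantified the transcripts, and on which annotation, the sources used here do not state. Rows were summed per gene and named with the gene name table (55141 of 55487 identifiers), and gene types and chromosome names came from GENCODE M21, which is built on another assembly. The 401 rows without a gene identifier were left out (0.605% to 0.943% of TPM).

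Genes reaching 1 TPM in 4 or more libraries were tested with limma 3.58.1 (R 4.3.3), with a mean-variance trend, on log2(TPM + 1). P-values were two-sided and adjusted by Benjamini-Hochberg over 14172 genes, with an FDR threshold of 0.05. The fit was checked on simulated data. The 4 libraries of a genotype are separate mice, per the series' design text. The members and gene lists were chosen with earlier results of these data known. Named were the 4 most abundant collagens per class, the 5 with the smallest p in each direction, 3 chain pairs, and up to 2 genes per partner list and direction. The rest are given by range, except Col5a2. Alternatives were a pseudocount of 0.1, no filter, only the strongest row of each gene, scaling by median ratios, omission of each mouse, and mean log2 levels for the class sums.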

Additional observations from a re-analysis of the deposited data

Results flagged for a closer look

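In groups of 4 mice, a value was picked out when its gap to the nearest other mouse, divided by the group's range, was above Dixon's 95% critical value for 4 samples. Of 188 groups examined 9 met this, which is 4.79%, and chance alone gives about 1 in 20. Col22a1, a collagen of tissue junctions, had 2.73 TPM in AKO mouse 11, against 0.04 to 0.25 TPM in the other AKO mice. Col6a6 had 6.56 TPM in AKO mouse 8, with the other AKO mice at 5.48 to 5.62 TPM. Col4a4 had 0.360 TPM in AKO mouse 9, with the others at 0.790 to 0.810 TPM. Col7a1, of anchoring fibrils, had 0.960 TPM in WT mouse 3, with the other WT mice at 0.05 to 0.15 TPM. Tll1 had 1.5 TPM in WT mouse 4, with the other WT mice at 1.21 TPM. The TPM ratio of Col3a1 to Col1a1 was 4.14 in WT mouse 4, with the other WT mice at 2.94 to 3.13. Col11a1 had 0.05 TPM in AKO mouse 3 and 0.05 TPM in WT mouse 3, and Col9a2 had 0.02 TPM in AKO mouse 9, while the other mice of each group were listed at 0.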

How the results depend on the processing

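The count of collagens past the FDR threshold stayed at 0 under all 12 alternatives, with 1 to 5 at an unadjusted p below 0.05, and that of partner genes stayed at 0 too, with 3 to 18. The highest unadjusted counts came without WT mouse 3. The share of all tested genes at such a p was not counted under the alternatives. These counts therefore have no background to be read against. No paired analysis was possible because AKO and WT share 1 mouse number, on different animals. Of 18 named collagens 6 turned sign under some alternative, and of 24 named partner genes 1 did. With the highest row per gene the log2 change was -0.13 for Col16a1, 0.0064 for Col4a1 and -0.025 for Col6a2. Leaving out 1 mouse gave -0.24 to 0.030 for Col14a1, -0.051 to 0.047 for Col4a1, -0.015 to 0.10 for Col4a2, -0.21 to 0.021 for Col6a1, -0.11 to 0.16 for Col6a2 and -0.60 to 0.015 for Thbs1. The cause was not tested. For the summed levels, leaving out 1 mouse gave -0.026 to 0.22 for all collagens, 0.070 to 0.52 for fibrillar, -0.031 to 0.067 for collagen IV, -0.099 to 0.16 for collagen VI and -0.35 to -0.14 for the others. The log2 change of Slc16a1 was 0.068 to 0.34 when 1 mouse was left out and 2.24 with the highest row per gene, and that of Col18a1 was -0.026 with the highest row. With mean log2 levels of the tested members in place of sums, collagen VI gave 0.28 instead of 0.027, the others -0.0036 instead of -0.21, collagen IV 0.11 instead of 0.018 and fibrillar collagens 0.15 instead of 0.27. Leaving out 1 mouse gave 0.17 to 0.44 for Plod2, 0.17 to 0.42 for Loxl3 and 0.52 to 1.12 for Lair1. Depth is unknown, so how far counting error limits the collagens below 1 TPM cannot be given.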
